A study of Mus musculus with 31 samples.

Results

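The libraries described here are the 16 titled F among 31 bulk RNA-seq libraries of mouse thalamus, all from offspring examined at postnatal day 90. Members were taken by title alone: 8 are labelled as female offspring of mothers with SIR housing, a form of isolation that the labels abbreviate and do not spell out, and 8 as female offspring of control-housed mothers. The offspring themselves carry no treatment in the labels, and strain, litter, genotype and the timing of the mothers' isolation are not given. What follows compares SIR with control offspring within these 16 libraries. The other 15 libraries, titled M (7 SIR and 8 control), served to check the label of 1 library and to set the effect in F-titled beside that in M-titled animals. The labels name no litters, so sisters would have been counted as separate animals and every p-value rests on the spread among these libraries. The numbers in the library names, which are not the title numbers used below to name libraries, lie lower for all SIR animals than for all controls, so handling that moved with the numbers and maternal housing cannot be told apart.

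The thalamus relays sensory and motor signals to the cortex. Its relay neurons are glutamatergic, and their nuclei keep in adulthood parts of the transcription factor code that laid them out in the embryo, such as the LIM homeodomain genes Lhx2 and Lhx9, the homeobox gene Gbx2 and the Zic zinc finger genes. Axons entering and leaving it are wrapped in myelin made by oligodendrocytes, a membrane rich in cholesterol that brain cells largely synthesize themselves. A dissected thalamus borders on habenula, hypothalamus, midbrain and choroid plexus, so bulk libraries can carry transcripts of these neighbours.

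Library totals ran from 22.25 to 25.52 M estimated counts in SIR and from 13 to 25.74 M in control libraries, and the shallowest was control library 31. Markers of thalamic relay neurons were present in every library, with Tcf7l2 between 201 and 321.2 TPM and Prkcd between 584.2 and 1234 TPM. The Y-linked helicase gene Ddx3y was at or below 0.0474 CPM (counts scaled to a common library total) in 15 of the libraries and at 41.9 CPM in SIR library 5, within the 31.4 to 49.8 CPM of the M-titled libraries. The library labelled SIR 5 also held 148.6 CPM of the X-linked gene Eif2s3x, against 212.2 to 256.3 CPM in the other 15, so its transcripts go against its label. Markers of choroid plexus, the tissue that secretes cerebrospinal fluid, summed to 3302 CPM in control library 20 and to between 312.1 and 762.9 CPM in the other 15. In those 15 most of the sum was 1 gene, Enpp2, at 264.2 to 454.7 CPM. The marker Ttr ran from 1.12 to 225.4 CPM in them and was at 1569 CPM in control library 20. Counts are therefore given with and without SIR library 5 and control library 20. In bulk tissue, fewer cells of a type and less RNA per cell cannot be told apart.

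The widest fold differences were in genes of low or moderate level. Prokr2, Zic5, Wnt10a and Gpr151 were higher in SIR offspring, and Lmx1b, Ctxn3, Fzd5 and Nts were lower. In smaller steps, 13 of 26 oligodendrocyte genes fell and 4 of 22 genes of cholesterol synthesis rose. Of 14455 genes tested with edgeR's quasi-likelihood method, 495 (3.42%) had a Benjamini-Hochberg adjusted p under 0.05, the threshold used throughout. Of these, 261 (1.81%) were higher and 234 (1.62%) lower in SIR offspring, and 2799 genes had an unadjusted p under 0.05. Most of the differences were small: the median size was 0.30 on the log2 scale, 363 were under 0.5 and 39 were over 1. In 88 of the called genes (62 higher, 26 lower) the levels of the SIR and control libraries did not overlap, as they did not in 98 (0.678%) of all genes tested.

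Without SIR library 5, 377 genes (2.6%) were called, 228 higher (1.57%) and 149 lower (1.03%), of which 350 were among the 495. Leaving out control library 20 gave 894 (6.16%), 457 higher (3.15%) and 437 lower (3.01%), including 483 of the 495. Without both, 750 (5.19%) were called, 403 higher (2.79%) and 347 lower (2.4%), including 425 of the 495. Single libraries moved the count by more than 1.5 times in other cases too. It was 224 without SIR library 3, 206 without SIR 7, 283 without SIR 9, 245 without SIR 12, 284 without control 26, 247 without control 29 and 314 without control 30. All 495 genes kept their direction in each of these fits, which share most of the libraries in which the genes were selected. Of the 91 genes named for their p, fold or list call, 17 were no longer called without SIR library 5: Adamts4, Cbln4, Chd7, Chrna4, Cplx2, Ctxn3, Gdnf, Glra1, Hapln2, Has3, Inhba, Jun, Nrg1, Slc1a3, Sox10, Syt2 and Tal1. Without control library 20 this was 1, Cplx2. Without both it was 8: Cbln4, Chrna4, Cplx2, Ctxn3, Fzd5, Glra1, Inhba and Jun.

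Prokr2, the receptor of the secreted peptide prokineticin 2, had the smallest p of the genes that rose. Its level was 4.87, 9.55 and 12.4 CPM (lowest, median, highest) in SIR and 1.43, 2.69 and 4.14 CPM in control libraries, and the groups did not overlap. The log2 fold change was 1.63 ± 0.21 (SE, edgeR adjusted p = 0.00185), or 3.09-fold. Grm2, a presynaptic group II metabotropic glutamate receptor, stood at 47.8, 65.3 and 80.02 CPM (lowest, median, highest) in SIR and 29.7, 37.5 and 45.4 CPM in control libraries. Every SIR library lay above every control, and the log2 fold change was 0.78 ± 0.11 (edgeR adjusted p = 0.00185). Dab2ip, a Ras GTPase-activating protein, showed a small but tight difference, with 174, 179 and 184 CPM (lowest, median, highest) in SIR and 139, 150.1 and 159.6 CPM in control libraries and a log2 fold change of 0.26 ± 0.04. The AMPA receptor auxiliary subunit gene Cacng4 behaved likewise, at 112, 118 and 124 CPM (lowest, median, highest) in SIR and 89.97, 97.3 and 106 CPM in control libraries (0.28 ± 0.04). Neither gene's groups overlapped.

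Gpr151, an orphan receptor of habenula neurons, had the largest fold among genes of at least 1 CPM that rose. Its level was 1.67, 5.82 and 9.97 CPM (lowest, median, highest) in SIR and 0.554, 1.39 and 3.43 CPM in control libraries, the groups overlapped, and the log2 fold change was 1.88 ± 0.36 (edgeR adjusted p = 0.0118). Zic5 reached 6.29, 12.8 and 17 CPM (lowest, median, highest) in SIR and 2.62, 4.62 and 6 CPM in control libraries, with no overlap and a log2 fold change of 1.48 ± 0.20 (edgeR adjusted p = 0.00185). Wnt10a, a Wnt ligand, was measured at a low level of 1.78, 2.57 and 3.96 CPM (lowest, median, highest) in SIR and 0.73, 0.967 and 1.66 CPM in control libraries. Its groups did not overlap either, with a log2 fold change of 1.33 ± 0.20. Further genes that rose were the matrix glycoprotein genes Fbln1 (0.98 ± 0.14) and Fbln5 (0.44 ± 0.06), the monoamine oxidase gene Maob (0.54 ± 0.08) and the transcription factor gene Tox (0.60 ± 0.09). Mgat5b and B3gat2, both glycosyltransferase genes, rose by 0.47 and 0.32, the sorting receptor gene Sorcs2 by 0.34, and Grin2d, an NMDA receptor subunit gene, by 0.42. The galanin receptor gene Galr1 (1.17 ± 0.24), the T-box gene Tbr1 (1.06 ± 0.24), Cntnap3 (1.04 ± 0.19) and the growth factor gene Fgf10 (0.93 ± 0.21) rose with overlapping groups.

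**Figure D1:**
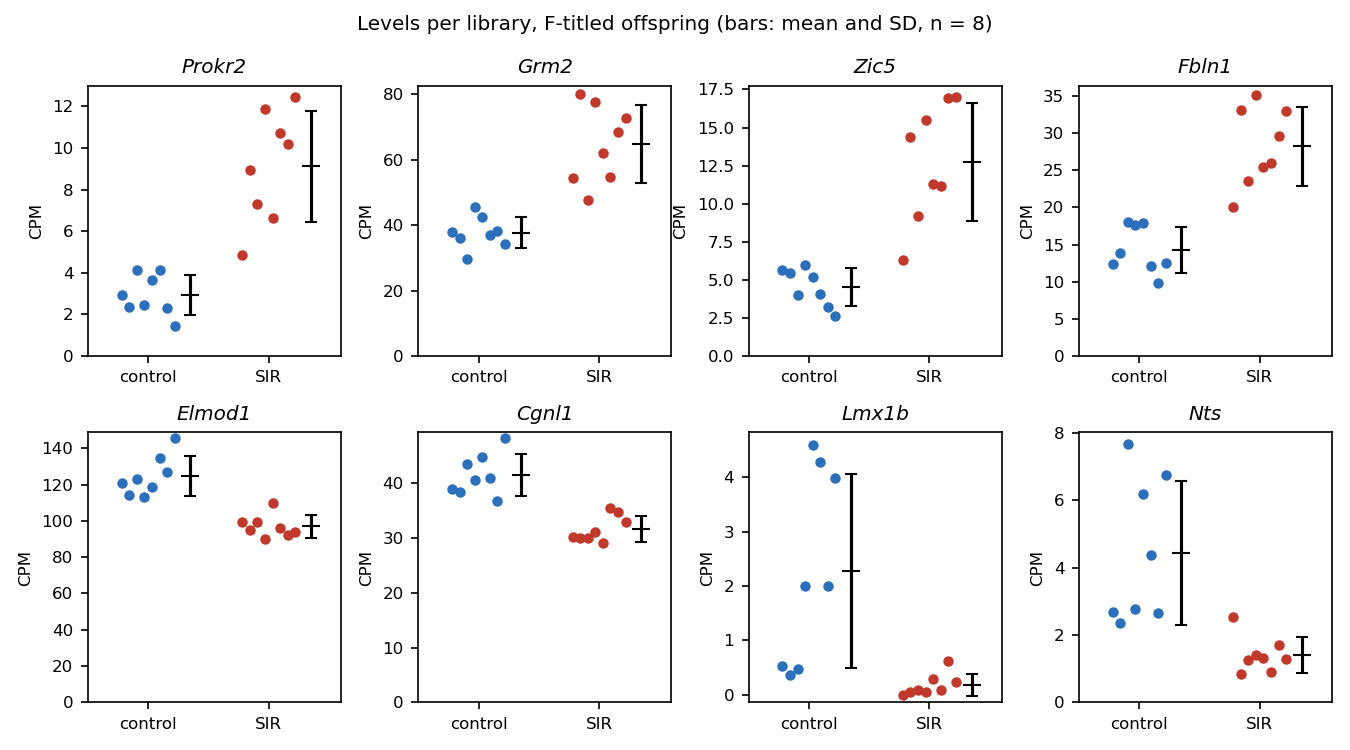
Levels in CPM of 8 genes (linear axes) in each of the 8 control (blue) and 8 SIR (red) F-titled libraries, with mean and SD. The groups do not overlap for Prokr2, Grm2, Zic5, Fbln1, Elmod1 and Cgnl1; those of Lmx1b and Nts overlap.

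Among the genes that fell, Elmod1, a GTPase-activating protein gene for Arf-type GTPases, had 90.1, 95.5 and 110.1 CPM (lowest, median, highest) in SIR and 113, 122 and 146 CPM in control libraries. The groups did not overlap, and the log2 fold change was -0.36 ± 0.05 (SE, edgeR adjusted p = 0.00185). Cgnl1, a junction protein gene, stood at 29.1, 30.7 and 35.6 CPM (lowest, median, highest) in SIR and 36.8, 40.8 and 48.3 CPM in control libraries (-0.39 ± 0.06), and its groups were apart as well.

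Lmx1b, a LIM homeodomain gene of midbrain and hypothalamic neurons, was at 0, 0.0852 and 0.617 CPM (lowest, median, highest) in SIR and 0.355, 2 and 4.59 CPM in control libraries. Its controls were themselves spread, with 0.528, 0.355 and 0.468 CPM in controls 17, 18 and 20 and 2 to 4.59 CPM in the other 5. The SIR libraries overlapped the lower controls only, and the log2 fold change was -3.65 ± 0.70 (SE, edgeR adjusted p = 0.0114). These levels are low, so counting error adds to the spread of the SIR values.

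Ctxn3, a small membrane protein gene, was at 2.74, 3.43 and 19.3 CPM (lowest, median, highest) in SIR and 4.93, 21.5 and 45 CPM in control libraries (-2.12 ± 0.50, edgeR adjusted p = 0.0345). Fzd5, a Wnt receptor gene, was at 3.21, 4.07 and 15.3 CPM (lowest, median, highest) in SIR and 7.42, 17.6 and 32.9 CPM in control libraries (-1.67 ± 0.38, edgeR adjusted p = 0.0301). For both, the highest SIR value came from SIR library 2 alone, and the next highest were 3.96 CPM for Ctxn3 and 5.59 CPM for Fzd5. Without SIR library 5 the adjusted p of Ctxn3 was 0.0607. Neurotensin (Nts), a neuropeptide gene, had 0.842, 1.3 and 2.54 CPM (lowest, median, highest) in SIR and 2.37, 3.58 and 7.67 CPM in control libraries and fell by 1.64 ± 0.29. The activin subunit gene Inhba (-1.50 ± 0.39), the phosphodiesterase gene Pde11a (-1.39 ± 0.28), Caln1 (-1.34 ± 0.29) and the transcription factor gene Npas1 (-1.32 ± 0.30) fell with overlapping groups. The neuregulin receptor gene Erbb3 fell by 0.34 ± 0.05, the transporter gene Slco3a1 by 0.37, the kinase gene Hipk2 by 0.27, the POU-domain gene Pou3f3 by 0.42 and the prolyl hydroxylase gene Egln3 by 0.62. Lzts1, Spg20, Cdr2, Cpd and Creb3l2 fell by 0.25 to 0.37.

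Genes of thalamic identity were followed as a list of 20 relay neuron genes, of which 5 rose, none fell and 15 did not pass the test. The 5 were Lhx9 (0.72 ± 0.11), Calb2 (0.71 ± 0.12, the calcium-binding protein calretinin), Necab1 (0.84 ± 0.15, a neuronal calcium-binding protein), Lhx2 (0.68 ± 0.13) and Gbx2 (0.54 ± 0.13). Calb2 stood at 215 to 292 CPM (median 247) in SIR and 110.5 to 192 CPM (median 164) in control libraries, and Lhx9 at 27.7 to 43.1 CPM in SIR and 16.3 to 24.6 CPM in control libraries. Neither gene's groups overlapped. The pan-thalamic genes Tcf7l2 (0.14 ± 0.08, edgeR adjusted p = 0.373), Slc17a6 (0.16 ± 0.08) and Prkcd (-0.10 ± 0.14) did not pass. The list's median log2 fold change was 0.08, beside -0.005 over all genes. Of the 20 genes, 12 had a positive and 8 a negative log2 fold change. The count of genes that rose was 5 as well without SIR library 5, without control library 20 and without both. Without both, 1 gene of the list also fell.

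Of the 5 Zic genes, transcription factors of the dorsal and midline forebrain, 3 rose: Zic5, Zic2 (0.65 ± 0.10) and Zic4 (0.77 ± 0.15). Zic2 had 68.2 to 92.3 CPM (median 78.2) in SIR and 36.9 to 65.8 CPM (median 52.6) in control libraries and did not overlap. Zic1 (0.30 ± 0.11, edgeR adjusted p = 0.133) did not pass. Zic2 and Zic5 are neighbours on chromosome 14. Of 14 genes of intralaminar and midline nuclei, 3 rose (Calb2, Necab1 and Calb1, 0.25 ± 0.06) and 2 fell (Nts and the synapse organizer gene Cbln4, -1.21 ± 0.30). None of 19 genes of the reticular nucleus and prethalamic GABA neurons was called, beside 3.42% of all genes tested.

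Genes of neighbouring tissue were followed as lists too. Midbrain and monoamine neuron genes summed to 198 to 276 CPM in SIR and 247 to 322 CPM in control libraries. Most of this sum was 1 gene, the aldehyde dehydrogenase gene Aldh1a1, at 154 to 231 CPM (median 172) in SIR and 162 to 233 CPM (median 217) in control libraries, which did not pass (-0.22 ± 0.09, edgeR adjusted p = 0.175). Of 12 tested, Lmx1b and Tal1 (-1.25 ± 0.32), a transcription factor of midbrain GABA neurons, fell, and 10 of 12 had a negative log2 fold change. The fall of Tal1 came mostly from controls 29 and 31, at 6.81 and 8.51 CPM. The other controls had 1.89 to 2.7 CPM of Tal1 and the SIR libraries 0.938 to 2.03 CPM. The defining markers Th (-0.72 ± 0.41, edgeR adjusted p = 0.357) and Slc18a2 (-1.23 ± 0.48, 0.175) did not pass, at 7.95 ± 4.14 CPM in SIR and 13.1 ± 7.38 CPM in control libraries (SD, n = 8) for Th. Slc18a2 too was highest in controls 29 and 31, at 15.5 and 9.94 CPM. Hypothalamic genes summed to 159.5, 402 and 620.1 CPM (lowest, median, highest) in SIR and 116, 205 and 711 CPM in control libraries. Within this list Oxt split the controls. It was at 133.7, 72.4 and 27.5 CPM in controls 17, 18 and 20, those low in Lmx1b, and at 0.0952 to 5.92 CPM in the others. In SIR library 11 Oxt was at 1.94 CPM and in the other SIR libraries at 83.1 to 181.4 CPM, and it did not pass. Avp and Otp were split alike. Pmch overlapped, at 42.3 to 124 CPM in controls 17, 18 and 20 and 9.95 to 44.2 CPM in the other controls. In the habenula list Gpr151 was the 1 of 16 called, and in the cortex and hippocampus list Tbr1 was the 1 of 17, beside 3.42% of all genes tested. Of 14 striatum and pallidum genes Syndig1l rose (0.59 ± 0.09). The part of neighbouring tissue in these differences was not tested.

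All 19 choroid plexus genes tested had negative log2 fold changes, with a median of -1.29, and none was called. With control library 20 left out the median was -0.04, and without both libraries -0.01. When 2 principal components of the region marker scores, which include genes named here, entered the fit, 406 genes were called (257 higher, 149 lower), 280 of them among the 495. In that fit Lmx1b had -2.77 (edgeR adjusted p = 0.0107), Prokr2 1.83 (0.000729) and Zic5 1.57 (0.00242). Of the 91 genes named for their p, fold or list call, 65 kept their call there and 26 did not. Among the 26 were Tal1 (-0.95, edgeR adjusted p = 0.187), Ctxn3 (-2.06, 0.161), Caln1 (-1.23, 0.123) and Cbln4 (-1.13, 0.187). Fzd5 (-1.55, edgeR adjusted p = 0.142), Inhba (-1.43, 0.174) and Pde11a (-1.06, 0.104) were among them too.

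**Figure D2:**
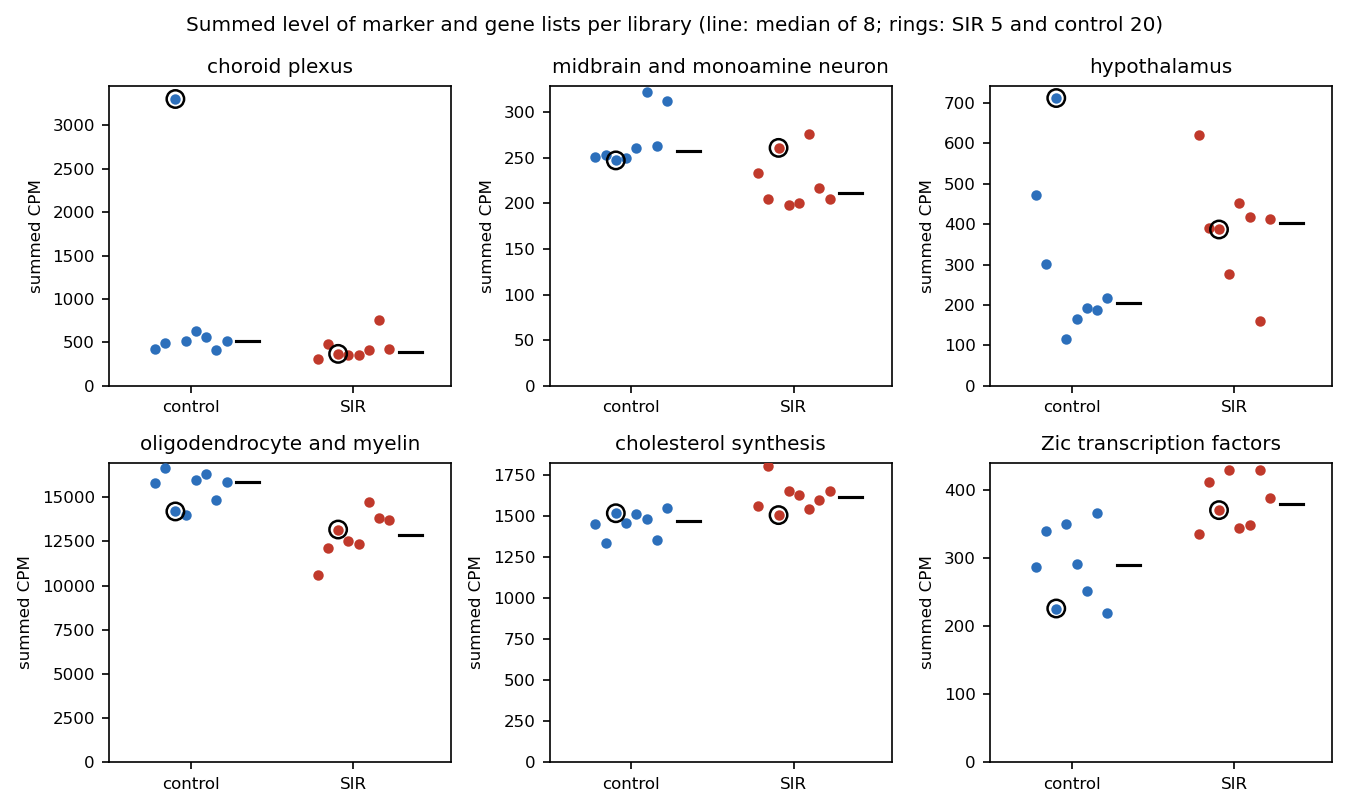
Summed CPM of 6 gene lists in each control (blue) and SIR (red) F-titled library, with the median of each group as a line and SIR library 5 and control library 20 ringed. Control library 20 stands at 3302 CPM of choroid plexus genes, and the oligodendrocyte sums lie between 10613 and 14716 CPM in SIR and 13996 and 16661 CPM in control libraries.

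Oligodendrocyte genes were lower in SIR offspring. Of 26 genes of mature oligodendrocytes and myelin tested, 13 fell, none rose and 24 had a negative log2 fold change. The list's median was -0.24, against -0.005 over all genes. Myrf, the transcription factor that drives myelin genes, was at 127, 154 and 168 CPM (lowest, median, highest) in SIR and 169, 186 and 202 CPM in control libraries, without overlap, and fell by 0.30 ± 0.06 on the log2 scale (SE, edgeR adjusted p = 0.00772). Myelin basic protein (Mbp), a main protein of compact myelin, had 3603, 4292 and 4958 CPM (lowest, median, highest) in SIR and 4639, 5321 and 5923 CPM in control libraries. Only the upper SIR and the lower control libraries overlapped, and Mbp fell by 0.28 ± 0.06 (edgeR adjusted p = 0.0166).

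Mobp, another myelin protein gene, fell by 0.35 ± 0.08, Ermn, a cytoskeletal gene of oligodendrocytes, by 0.40 ± 0.09, and Apod, a lipid carrier gene, by 0.42 ± 0.09. Transferrin (Trf) fell by 0.27 ± 0.06. The lipid enzyme genes of myelin, Fa2h (-0.26) and Ugt8a (-0.30), and the junction genes Gjb1 (-0.25) and Cldn11 (-0.23) fell, as did Mal (-0.29) and Bcas1 (-0.32). Mag (-0.17 ± 0.05, edgeR adjusted p = 0.0806), Mog (-0.19 ± 0.06, 0.0869) and Cnp (-0.17 ± 0.05, 0.0566) did not pass. The count of genes that fell was 10 without SIR library 5, 16 without control library 20 and 16 without both.

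Of 14 precursor and lineage genes, Sox10 (-0.21 ± 0.05) and Nkx2-2 (-0.36 ± 0.10), both transcription factors of the oligodendrocyte lineage, fell. The precursor markers Pdgfra (0.03 ± 0.05, edgeR adjusted p = 0.78) and Cspg4 (0.01 ± 0.06, 0.968) did not pass. Nrg1, a ligand of the Erbb receptors, fell by 0.41 ± 0.11 (edgeR adjusted p = 0.0374), beside the receptor gene Erbb3 above. None of 18 microglial genes and none of 17 endothelial genes was called, and 1 of 21 astrocyte genes, the glutamate transporter gene Slc1a3, rose (0.25 ± 0.07). With 3.42% of all genes tested called, these counts do not set these cell types apart from that share.

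Genes of cholesterol synthesis ran the other way. Of 22 tested, 4 rose, none fell and 20 had a positive log2 fold change, with a median of 0.18. Hmgcs1, which makes the precursor of mevalonate, had 198, 238 and 248 CPM (lowest, median, highest) in SIR and 169.6, 200.4 and 213 CPM in control libraries and rose by 0.20 ± 0.06 (SE, edgeR adjusted p = 0.0448). Mvd, which forms isopentenyl diphosphate, rose by 0.30 ± 0.07. The sterol-modifying enzyme genes Nsdhl and Hsd17b7 rose by 0.22 ± 0.06 and 0.36 ± 0.09. All 4 overlapped between groups, Mvd by 1 pair of values (control highest 19.17, SIR lowest 19.16 CPM). The regulator gene Srebf2 (0.16 ± 0.05, edgeR adjusted p = 0.0743) did not pass. The number that rose was 7 without SIR library 5, 9 without control library 20 and 10 without both.

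Promoters of the 4 called genes are shown because genes of this pathway are known to share CCAAT boxes, bound by NF-Y, and sterol regulatory elements. The sequences are the 170 bases up to the transcript start, 5′ to 3′ along the gene, from RefSeq with build GRCm38.p6. They are Hsd17b7 at chr1:169969206-169969375 (minus strand), Mvd at chr8:122443423-122443592 (minus strand), Nsdhl at chrX:72918351-72918520 (plus strand) and Hmgcs1 at chr13:119690181-119690350 (plus strand). Capitals mark CCAAT on either strand (CCAAT or ATTGG) and, in Hmgcs1, the sterol element searched as TCACNCCAC.
Hsd17b7: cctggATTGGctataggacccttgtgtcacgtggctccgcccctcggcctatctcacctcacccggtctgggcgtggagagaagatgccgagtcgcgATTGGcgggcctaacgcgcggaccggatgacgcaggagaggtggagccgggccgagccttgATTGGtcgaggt
Mvd: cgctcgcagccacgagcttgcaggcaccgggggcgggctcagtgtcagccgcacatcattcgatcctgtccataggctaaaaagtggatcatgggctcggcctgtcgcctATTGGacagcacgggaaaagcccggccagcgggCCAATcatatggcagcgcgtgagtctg
Nsdhl: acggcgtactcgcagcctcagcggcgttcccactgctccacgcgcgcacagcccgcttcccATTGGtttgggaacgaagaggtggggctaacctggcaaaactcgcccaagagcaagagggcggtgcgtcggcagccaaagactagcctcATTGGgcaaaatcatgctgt
Hmgcs1: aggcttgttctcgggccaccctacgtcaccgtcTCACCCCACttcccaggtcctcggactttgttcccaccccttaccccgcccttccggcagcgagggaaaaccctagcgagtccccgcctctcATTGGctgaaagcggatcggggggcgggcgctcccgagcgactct
In the 250 bases before the start, CCAAT on either strand was present in 15 of the 18 windows of list genes (83.3%) and in 33.85% of the 32851 windows of the table. These 18 windows belong to the 15 of 22 list genes that matched the table, and each gene had it in at least 1 window. It stands 165, 73 and 12 bases before the start in Hsd17b7, 60 and 27 in Mvd, 109 and 20 in Nsdhl and 237, 176 and 45 in Hmgcs1. TCACNCCAC was found in Hmgcs1 alone among the 15 and in 1.05% of all windows. A match describes the letters only and shows neither binding nor a cause.

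**Figure D3:**
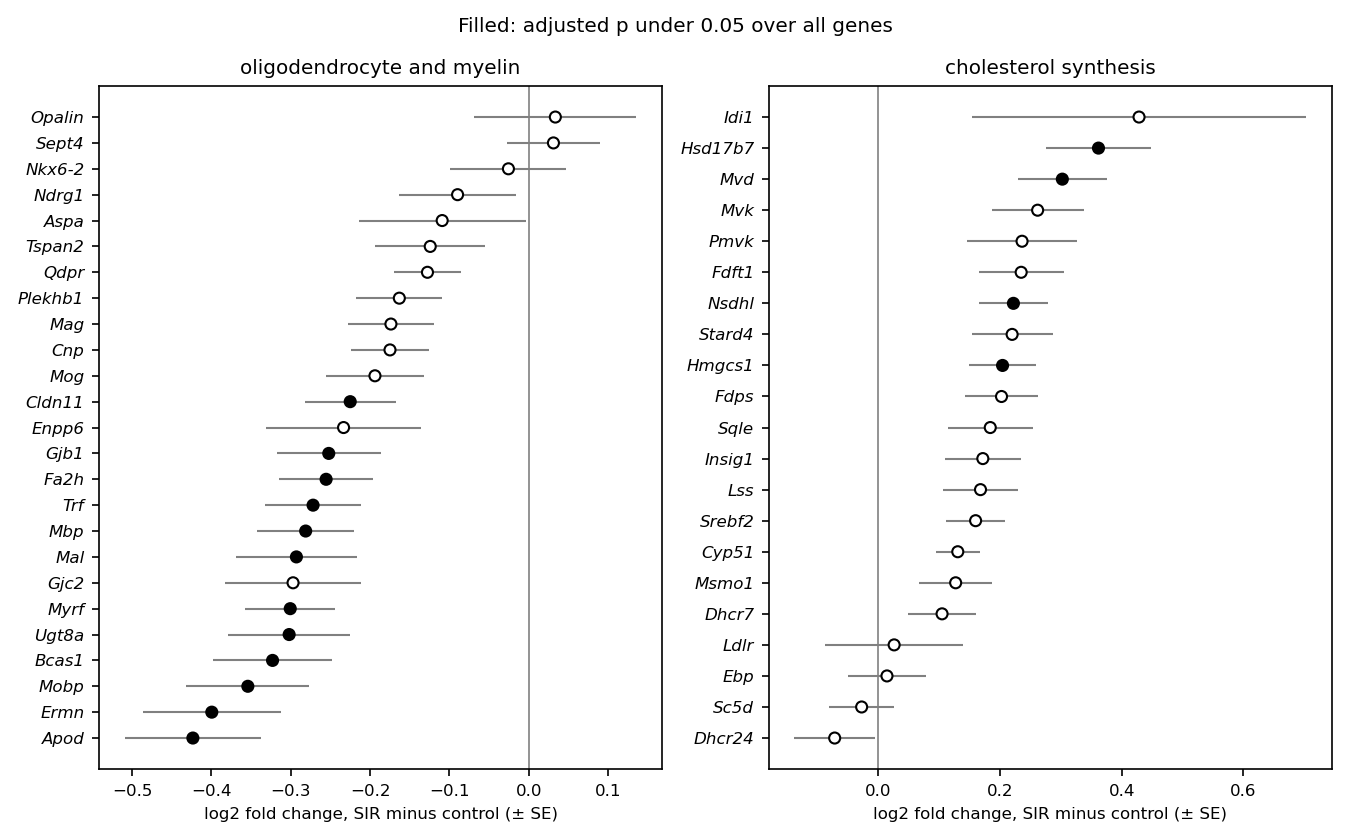
Log2 fold change of SIR minus control (± SE) for 25 oligodendrocyte and myelin genes (left) and 21 cholesterol synthesis genes (right), with genes past the threshold filled. On the left 23 of 25 lie below 0 and 12 are filled; on the right 19 of 21 lie above 0 and 4 are filled.

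Synaptic and receptor genes were called singly and in both directions. Of 29 genes of vesicle release, 2 rose, the vesicle protein gene Syn2 (0.36 ± 0.07) and the syntaxin gene Stx1a (0.41 ± 0.10), and 3 fell: Cplx2 (-0.83 ± 0.21), the calcium sensor gene Syt2 (-0.67 ± 0.17) and Vamp1 (-0.35 ± 0.10). Grm2 and Grin2d were the 2 of 24 glutamate receptor genes called. Without control library 20, and also without both libraries, 4 glutamate receptor genes rose and 3 fell. Of 20 GABA and glycine receptor genes, Glra1, a glycine receptor subunit gene, fell (-1.10 ± 0.26) and Gabra3 rose (0.30 ± 0.08). Chrna4 (1 of 38 monoamine and acetylcholine receptor genes) rose by 0.26, and Galr1 was the 1 of 31 stress hormone and neuropeptide receptor genes called. Of the 38, none was called without SIR library 5. Without control library 20, 2 of them rose and 4 fell, and without both 1 rose and 1 fell. None of 35 ion channel genes was called in the fit of all 16 libraries. In this list 1 fell without SIR library 5, 6 without control library 20 and 4 without both. The axon guidance receptor genes Plxnc1 (0.33 ± 0.06) and Plxnd1 (0.29 ± 0.08) rose, 2 of 41. Over all genes tested 3.42% were called, and the calls of 1 of 38, 1 of 31 and 2 of 41 lie near that share. Without SIR library 5, without control library 20 and without both, 2.6%, 6.16% and 5.19% of all genes were called.

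In the list of mural and leptomeningeal cells, which form vessel walls and meninges, 4 of 25 fell and 1 rose. Those that fell were the contractile genes Acta2 (-0.47 ± 0.12) and Tagln (-0.52 ± 0.14), the collagen gene Col3a1 (-0.58 ± 0.12) and Ptgds (-0.40 ± 0.09), a prostaglandin synthase gene that oligodendrocytes also express. The 1 that rose was Fbln1. Of 30 matrix and perineuronal net genes, Fbln1 and Fbln5 rose and 4 fell: the protease genes Adamts1 (-0.30 ± 0.08) and Adamts4 (-0.29 ± 0.07), the hyaluronan synthase gene Has3 (-0.54 ± 0.15) and Hapln2 (-0.31 ± 0.09), a link protein gene of nodes of Ranvier. The summed level of the mural list ran from 685 to 865 CPM in SIR and from 774 to 988 CPM in control libraries. Its log2 fold changes were negative in 16 genes and positive in 9, with a median of -0.11. Over all genes tested 1.62% were called lower and 1.81% higher.

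Of 35 chromatin genes, 3 fell, the remodelling subunit gene Arid1b (-0.17 ± 0.04), the acetyltransferase gene Kat2b (-0.27 ± 0.07) and Chd7 (-0.23 ± 0.06). Of 23 immediate early genes, Jun (0.28 ± 0.07) and Jund (0.27 ± 0.07) rose. Nr1d1, a repressor of the circadian clock, was the 1 of 19 clock genes called (0.28 ± 0.07), and the cold-inducible RNA-binding protein gene Cirbp rose (0.47 ± 0.10), 1 of 18. Single calls in lists of this size lie near the 3.42% called over all genes tested. The growth factor gene Gdnf rose by 1.32 ± 0.33 from a low level of 0.535 ± 0.352 CPM in control libraries (SD, n = 8). No gene was called among 71 ribosomal protein genes (70 positive, median 0.11), 73 nuclear genes of oxidative phosphorylation (69 positive, median 0.09), 13 mitochondrially encoded genes (13 negative, median -0.11), 26 interferon and antigen presentation genes, 13 ependymal genes or 9 genes of sex steroid signalling. Without control library 20, 11 ribosomal protein genes rose, against 3 without both libraries and none without SIR library 5. With SIR libraries 2 and 3 and control libraries 29, 30 and 31 left out, whose library-name numbers lie apart from their group, the mitochondrial median was 0.27.

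Transcripts were then tested one by one. Of 34507 transcripts, 49 (0.142%) were called by edgeR, 36 higher (0.104%) and 13 lower (0.0377%), and 47 of them belong to genes called as a whole. The smallest p belonged to Ndst1-202, a coding transcript of a heparan sulfate sulfotransferase gene, which rose by 0.32 ± 0.04 (SE, edgeR adjusted p = 0.0105). Its level was 72.8 ± 2.41 CPM in SIR and 58.4 ± 3.23 CPM in control libraries (SD, n = 8). Cacng4-201 (0.29 ± 0.04), Fbln1-202 (1.10 ± 0.15), B3gat2-201 (0.33 ± 0.05), Grm2-201 (0.78 ± 0.11) and Sorcs2-201 (0.35 ± 0.05) rose. Slco3a1-202 (-0.40 ± 0.06), Erbb3-201 (-0.34 ± 0.06), Cpd-201 (-0.24 ± 0.04), Hipk2-206 (-0.26 ± 0.05) and Pou3f3-201 (-0.42 ± 0.08) fell.

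The 2 called transcripts outside called genes were named after their values were seen. Nisch-213 rose by 0.33 ± 0.06 while its gene had 0.08 ± 0.05, and Ncoa3-202 fell (-0.40 ± 0.07) while its gene had -0.13 ± 0.05. The count of called transcripts rested on single libraries. It was 48 without SIR library 5, 83 without control library 20 and 86 without both. It dropped to 2 without SIR 7, 6 without SIR 3, 11 without SIR 9, 25 without SIR 10, 16 without SIR 11 and 8 without SIR 12. Without single controls it was 15 (17), 13 (18), 18 (26), 8 (29), 8 (30) and 24 (31), with the library in parentheses.

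Whether transcripts of 1 gene shifted against each other was tested in 8792 genes. None was called by edgeR's diffSpliceDGE, with 481 at an unadjusted p under 0.05 and the smallest adjusted p, 0.0769, for C2cd5. Other tests called 2 genes (Simes, Spag9 and C2cd5) and 27 (limma's diffSplice). C2cd5-201, a coding transcript of a vesicle-trafficking gene, held 14.6% ± 3.86 in SIR and 1.18% ± 2.74 in control libraries of the gene's TPM (mean ± SD, n = 8), and C2cd5-203 held 9.68% ± 7.12 in SIR and 21.9% ± 8.48 in control libraries. Iqsec3-204, a transcript annotated for nonsense-mediated decay, held 23.5% ± 3.4 in SIR and 9.76% ± 5.53 in control libraries. Jakmip3-202 held 46.7% ± 9.81 in SIR and 63.7% ± 8.02 in control libraries, and Btbd6-204 held 57.7% ± 6.39 in SIR and 46.2% ± 9.79 in control libraries. The other genes among the 8 with the smallest p were Polr3d, Gstcd, Mical3 and Ccm2. Polr3d-202 held 12% ± 4.14 in SIR and 26.4% ± 9.85 in control libraries. Gstcd-202 held 33.4% ± 13.2 in SIR and 61.2% ± 9.17 in control libraries. Mical3-202 held 15.5% ± 6.25 in SIR and 7.06% ± 4.12 in control libraries, and Ccm2-202 held 7.08% ± 7.9 in SIR and 0.523% ± 1.1 in control libraries. The assignment error of kallisto among overlapping transcripts is not part of these tests.

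Effects were set beside those of the M-titled offspring in 1 fit of all 31 libraries, in which SIR and control differed in 198 of 14886 genes (1.33%) among M-titled animals. The difference between the F and M effects itself was called in 422 genes (2.83%). It was called in 226 of the 495, which were selected for their F effect and so lean toward a difference. Of the 261 genes that rose in F-titled offspring, the M estimate was positive in 72 and negative in 189. None of these was called higher and 5 were called lower in M-titled offspring. Of the 234 that fell, the M estimate was positive in 140, and 6 were called higher.

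Zic5 differed between F and M by 2.17 on the log2 scale (edgeR adjusted p = 5.52e-04), with -0.70 in M-titled offspring. Necab1 differed by 1.63 (edgeR adjusted p = 9.04e-04), with -0.79 in M. Mbp differed by -0.57 (edgeR adjusted p = 0.00134), with 0.28 in M. Of the 26 oligodendrocyte genes, 17 differed, all more negative in F, and the list's median in M was 0.22. Of the cholesterol genes, 7 of 22 differed, all more positive in F. Gpr151 did not pass (1.88, edgeR adjusted p = 0.183). The count over all genes was 464 without SIR library 5, 452 without control library 20 and 485 without both.

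**Figure D4:**
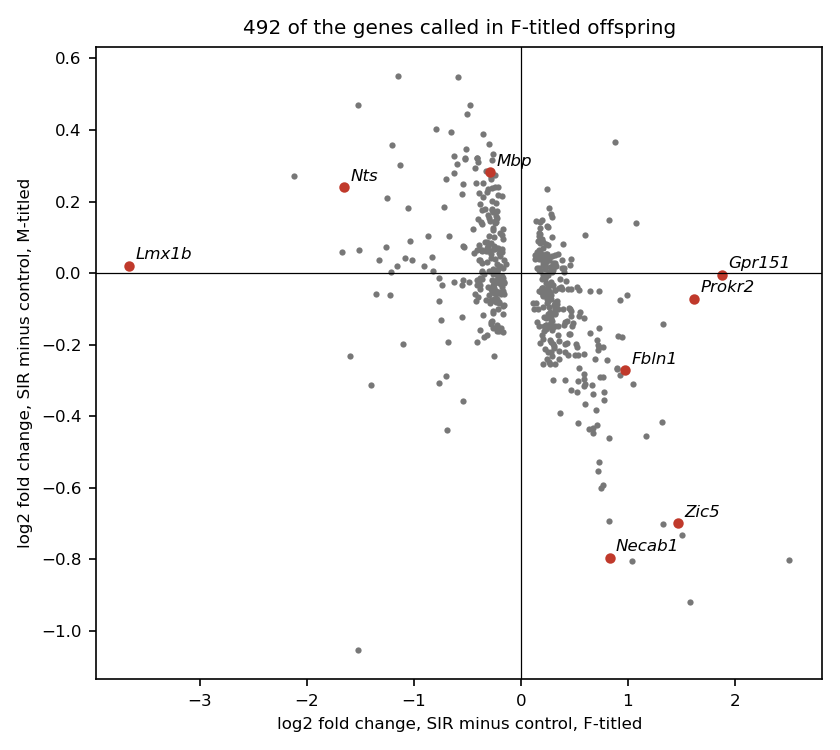
Log2 fold change of SIR minus control in F-titled (horizontal) and M-titled (vertical) offspring for 492 of the 495 genes called in F, from the fit of 31 libraries, with 8 genes in red. Of the genes to the right of 0, 189 of 261 lie below the horizontal line; the F values were selected for their size and the M values were not.

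The relation of level to transcript length differed on average between the groups, but not in every control library. The slope of log2 CPM on log2 effective length across genes, taken per library, was -0.014 ± 0.0166 (SD, n = 8) in SIR and 0.014 ± 0.0249 (n = 8) in control libraries. The difference was -0.028 (exact permutation test over 12870 splits, two-sided, p = 0.0148). The highest control slopes were 0.0163, 0.0443 and 0.0587 in libraries 29, 30 and 31. The other controls ran from -0.00933 to 0.00609, within the SIR range of -0.0357 to 0.0108. Libraries 29, 30 and 31 are the controls of outlying library-name numbers, and 31 was the shallowest. What set these slopes apart was not tested. Once each library's own length trend had been subtracted, 443 genes passed, and 401 of those were in the 495. With transcript length offsets 312 were called, 274 among the 495.

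**Figure D5:**
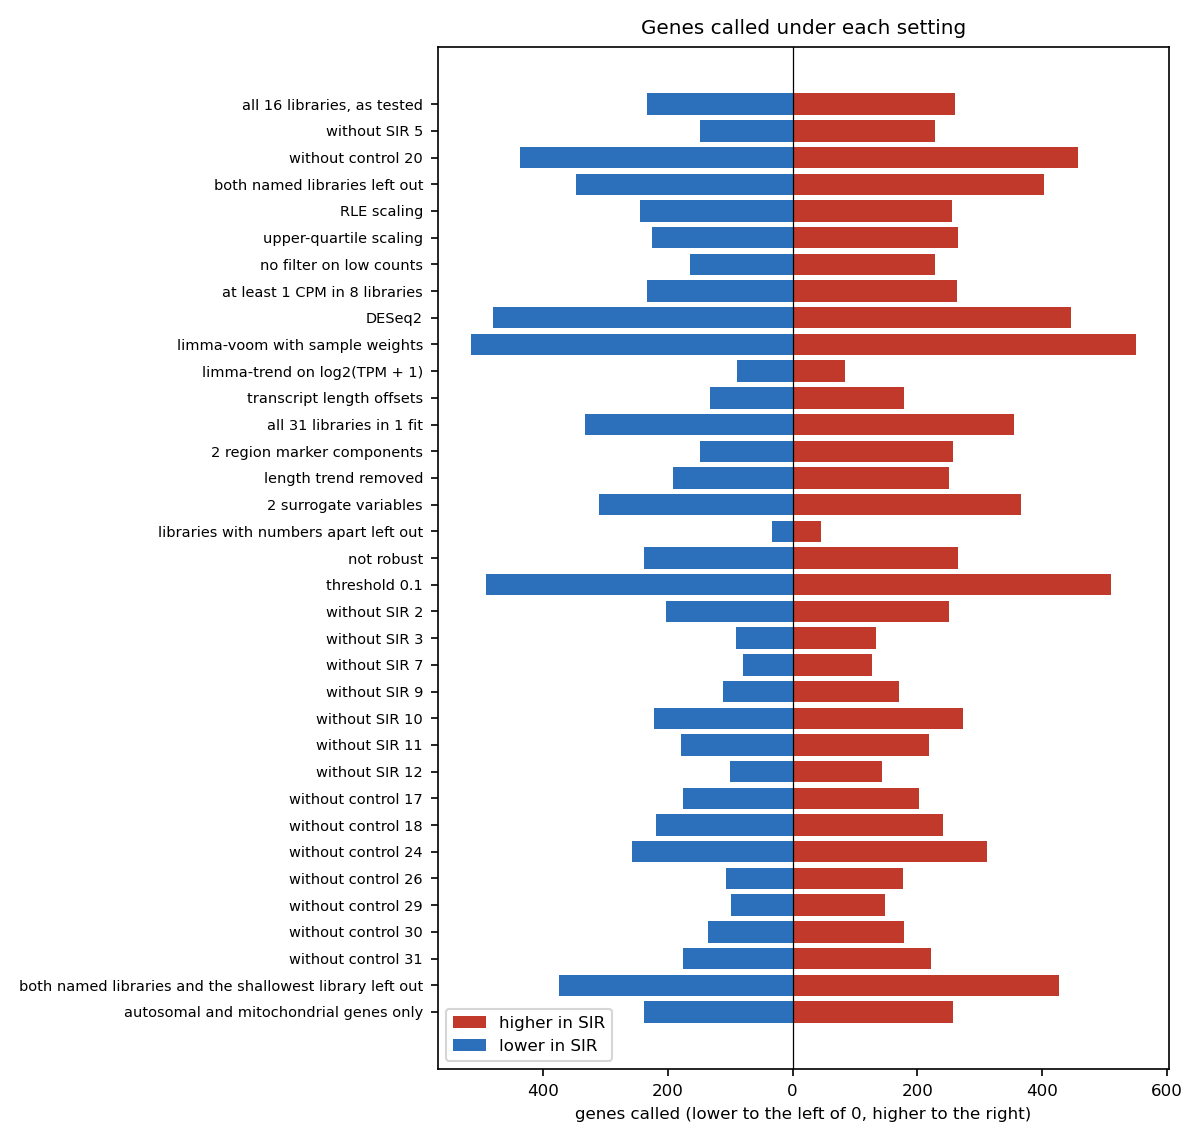
Number of genes called higher (red, right) and lower (blue, left) in SIR offspring under each setting, from 0 outward. The counts run from 79 with the libraries of outlying library-name numbers left out to 1067 with limma-voom sample weights, beside 495 in the fit reported.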

How the data were processed

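RNA-seq was analysed in the 16 F-titled thalamus libraries, with the 15 M-titled ones for the difference between F and M. Per the labels' protocols, extraction used a Qiagen AllPrep kit and polyadenylated RNA went into Illumina's stranded ligation kit. The submitters' processing notes list FastQC, kallisto and build GRCm39, without versions. Per the file headers, each deposited table gives 105878 transcripts with their effective length, the estimated count and TPM. The TPM values were scaled by the authors' quantification to effective length and a fixed total. No label says if kallisto used strand, which leaves values of overlapping or antisense genes uncertain.

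Identifiers of transcripts were looked up in GENCODE M21 (104949 found, or 99.12%, giving 25497 genes). This annotation is of GRCm38, so it gave names and chromosomes only, and coordinates are given for RefSeq promoters alone. The 929 unmatched transcripts took 0.69% to 0.74% of counts. Counts were added up within each gene, then rounded.

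The test for genes and transcripts was edgeR 4.0.16 (R 4.3.3): filterByExpr, TMM, robust quasi-likelihood fit of the 2 groups, Benjamini-Hochberg adjustment over all features, threshold 0.05. Levels are TMM-scaled CPM, and fold changes are log2 ± SE. Transcript usage was tested with diffSpliceDGE and the difference between F and M with 4 group means over 31 libraries. Alternatives used limma 3.58.1, DESeq2 1.42.0 and sva 3.50.0. Scripts were tested on simulated data. No pair of libraries within a group agreed within sampling noise (chi-square per gene 5.83 to 55 over 56 pairs).

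The libraries, the 38 gene lists and the tests were chosen with earlier results of these data known. Genes named are the 15 per direction with the smallest p, the 10 per direction with the largest fold at 1 CPM or more, up to 6 called members of each list with up to 3 of its most abundant, up to 6 transcripts per direction and 8 genes by usage. Gene models without a proper symbol (9 of those called) are not named, and a few genes are not reported here. Further list members without a call, and oligodendrocyte genes beyond 6, were named after their values were seen.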

Additional observations from a re-analysis of the deposited data

Results flagged for a closer look

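Chance alone sets about 1 in 20 groups apart by the gap criterion used here, which asks whether the highest or lowest of 8 libraries stands off from the others by an unusual share of the group's range. It was applied to 91 genes in both groups (182 groups) and picked 15. In SIR library 5 this was Fbln5 (highest, 32.9 CPM, next 28.6). In control library 29 this was Grin2d (lowest, 46.4 CPM, next 54.9). In control library 17 this was Cntnap3 (highest, 10.2 CPM, next 7). In SIR library 9 this was Elmod1 (highest, 110.1 CPM, next 99.5). In SIR library 3 these were Creb3l2 (highest, 34.4 CPM, next 30.3), Mvd (highest, 26.1 CPM, next 21.7). In SIR library 2 these were Ctxn3 (highest, 19.3 CPM, next 3.96), Fzd5 (highest, 15.3 CPM, next 5.59), Inhba (highest, 4.2 CPM, next 1.74), Cbln4 (highest, 52 CPM, next 21.4), Glra1 (highest, 16.6 CPM, next 10.9), Adamts4 (lowest, 40.4 CPM, next 49.5). In control library 31 these were Npas1 (highest, 8.75 CPM, next 5.28), Glra1 (highest, 42.5 CPM, next 23.9). In control library 20 this was Hapln2 (lowest, 24.7 CPM, next 32.8). Summed markers stood apart in control library 20 for choroid plexus (3302 CPM), ependyma (108.6 CPM) and striatum and pallidum (483.7 CPM), and in SIR library 11 for choroid plexus (762.9 CPM). SIR library 2 was the library picked most often among the genes. The part of tissue make-up in these values was not tested.

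The SIR minus control log2 fold change differed between F- and M-titled offspring in 55 of the 91 genes named (edgeR interaction term, adjusted p under 0.05 over all genes). In 53 of them the M estimate had the opposite sign. The genes had been chosen by their F effect, so these counts are no independent support. Values are the F minus the M log2 fold change. Among signalling, receptor and other genes with a more positive F effect were Prokr2 1.69, Dab2ip 0.33, Grm2 1.13, Cacng4 0.26, Mgat5b 0.56, Zic5 2.17, B3gat2 0.42, Fbln1 1.25, Sorcs2 0.43, Fbln5 0.56, Maob 0.83. Also more positive in F were Tox 0.91, Wnt10a 1.47, Grin2d 0.61, Syndig1l 0.87, Galr1 1.62, Cntnap3 1.84, Cwh43 1.06, Fgf10 1.21, Lhx9 1.14, Calb2 0.89, Necab1 1.63. To these add Lhx2 1.10, Gbx2 0.95, Zic2 0.81, Zic4 1.05, Gabra3 0.60, Syn2 0.59, Plxnc1 0.58, Plxnd1 0.41, Hsd17b7 0.55, Nsdhl 0.34, Hmgcs1 0.37. More negative in F were Elmod1 -0.43, Cgnl1 -0.47, Slco3a1 -0.57, Pou3f3 -0.37, Spg20 -0.33, Egln3 -0.90, Nts -1.89, Cdr2 -0.51, Lmx1b -3.68, Myrf -0.47. Others below 0 were Apod -0.72, Mbp -0.57, Mobp -0.54, Trf -0.54, Sox10 -0.46, Col3a1 -1.13, Ptgds -0.71, Acta2 -0.95, Tagln -0.85, Vamp1 -0.50. The rest were Adamts1 -0.54, Hapln2 -0.54.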

How the results depend on the processing

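All 495 genes kept their direction in every fit in which they were tested. They were selected in these libraries, which the fits share in whole or in large part, so this is no independent support. The counts of genes called (all, higher, lower) were 377, 228 and 149 without SIR library 5, 894, 457 and 437 without control library 20, and 750, 403 and 347 without both. They were 803, 428 and 375 with the shallowest library left out too, a choice made after seeing the data. DESeq2 gave 927, 447 and 480, limma-voom with sample weights 1067, 551 and 516, limma-trend on log2(TPM + 1) 173, 84 and 89, transcript length offsets 312, 179 and 133, region marker components 406, 257 and 149, and a threshold of 0.1 1003, 511 and 492. Leaving out SIR libraries 2 and 3 and control libraries 29, 30 and 31, whose library-name numbers (not their title numbers) lie apart from their group, gave 79, 46 and 33, and the cause was not tested. Single libraries left out gave 206 to 894 genes, 127 to 457 higher and 79 to 437 lower. The share called higher was 52.7%, against 63.3% with the region components and 48.2% with DESeq2. Other scaling (RLE 499, upper quartile 491), filters (393 with none, 498 at 1 CPM), fitting without robust estimation (505) and autosomal and mitochondrial genes alone (496, added after seeing the data) stayed within 1.5 times.

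Called transcripts numbered 83 without control library 20, 86 without both libraries, 21 with no filter, 126 with limma-voom, and 2 to 83 with single libraries left out. Genes with differing transcript usage, 0 as tested, were 4 without SIR library 5, 4 without control library 20, 1 without both, 2 by Simes, 27 by limma and 11 among transcripts of at least 10% of a gene. The length slope difference ran from -0.0316 to -0.0215 with single libraries left out. Of the 91 genes named, 1 to 39 lost their call with a single library left out (most without SIR library 7), 17 without SIR library 5, 1 without control library 20, 8 without both, 26 with the region components and 56 without the libraries of outlying library-name numbers. No paired analysis was possible because the groups share no replicate number. Genes under 1 CPM, such as Lmx1b in SIR libraries, rest on few counts.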
